A study of Sus scrofa with 9 samples.

Results

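The genes described here are the 3 transforming growth factor beta ligands (TGFB1, TGFB2 and TGFB3), their type I and type II receptors (TGFBR1 and TGFBR2) and the first 5 genes of the CCN family (CCN1 to CCN5), which encode secreted matricellular proteins. They are 10 of the 21357 genes in the table, and 9 were found by gene name, while TGFB1 was found by its gene ID (ENSSSCG00000003017) through a table that pairs IDs with symbols. The 10 genes were selected on their FPKM values and group differences in these same 9 libraries. Their levels, fold changes and p-values are therefore a description of how large each difference was beside the spread between libraries, and they support nothing further. FPKM counts fragments per length of transcript and depth of library, and it is the scale on which levels of different genes can be set side by side.

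The TGF-beta ligands are secreted in a latent form bound to the extracellular matrix, and once released they bind TGFBR2, which recruits and phosphorylates TGFBR1, which in turn phosphorylates SMAD transcription factors. In arteries this pathway is known for controlling smooth muscle differentiation and the production of collagen, elastin and proteoglycans. CCN proteins bind integrins and growth factors in the matrix. CCN1 and CCN2 (formerly CYR61 and CTGF) are immediate early genes that TGF-beta, mechanical load and the YAP/TAZ coactivators with TEAD factors switch on, CCN3 (NOV) is abundant in smooth muscle and restrains its proliferation, and CCN4 and CCN5 (WISP1 and WISP2) are Wnt-induced family members.

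RNA was taken from the abdominal aorta of Tibetan minipigs (male animals of a small breed) and sequenced as poly(A) mRNA. NC pigs ate a normal diet for 24 weeks, H8 pigs a high-fat diet for 8 weeks (labelled hypercholesterolemia) and H24 pigs a high-fat diet for 24 weeks (labelled atherosclerosis). The paper describes the diet of its 24-week group as high in both fat and cholesterol, with cholesterol added to the feed. It is called the high-fat diet here. Each group has 3 libraries. The paper's methods state that 3 pigs were picked from each group, but they describe only the control and 24-week groups. The 8-week group is known here from its labels, and whether its libraries come from 3 different pigs is not stated in the methods. Only NC and H24 share the time on their diet, so in H8/NC diet cannot be told apart from time and age, and in H24/H8 time on the diet cannot be told apart from age.

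The libraries held between 44094263 and 75787978 estimated counts, and no member had fewer than 124 counts in any library. H24 replicate 3 stood apart from the other libraries of its group, with Pearson's r of log2 CPM across genes of 0.918 and 0.891 against 0.962 between replicates 1 and 2. The aorta was recognisable by 8 of 8 smooth muscle markers, whose summed FPKM was 12042 to 14137 in NC and 10241 to 13832 in H8, but 8277, 12129 and 1766 in H24 replicates 1 to 3. The 8 macrophage markers summed to 21.2 to 28.0 FPKM in NC, 26.0 to 148 in H8 and 245, 145 and 1576 in H24 replicates 1 to 3. The 7 T cell markers summed to 0.358 to 0.531, 0.983 to 1.06 and 3.65 to 17.9 FPKM in NC, H8 and H24. The 8 fibroblast markers summed to 255 to 355, 413 to 879 and 407 to 622, the 6 measured endothelial markers to 58.7 to 151, 46.0 to 75.1 and 71.2 to 117, and the 8 adipocyte markers to 111 to 184, 70.1 to 148 and 75.9 to 221. In such bulk samples, fewer cells of a type and less RNA per cell cannot be told apart.

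CCN3, CCN2, CCN1 and TGFB3 were the most abundant of the 10 genes in every group, and TGFBR1 was the least abundant. In NC the mean FPKM fell in the order CCN3 (290), CCN2 (186), CCN1 (153), TGFB3 (119), TGFBR2 (36.6), TGFB1 (18.5), CCN4 (4.73), TGFB2 (4.21), CCN5 (4.05) and TGFBR1 (0.677). CCN2, CCN1 and TGFB3 overlapped their neighbours in that order, as did CCN4, TGFB2 and CCN5, so these neighbours were not separated beyond their spread. In H8 CCN2 (715) and CCN1 (487) moved above CCN3 (401), although the FPKM ranges of neighbouring genes overlapped. In H24 CCN3 (299) was again first, followed by CCN2 (219) and CCN1 (120), with every neighbouring pair overlapping except TGFB1 and CCN5. Over all 9 libraries, CCN2 had a higher mean FPKM than 99.5% of the 18900 genes with any signal, TGFB3 than 98.1%, TGFB1 than 92.2% and TGFBR1 than 43.1%.

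**Figure D1:**
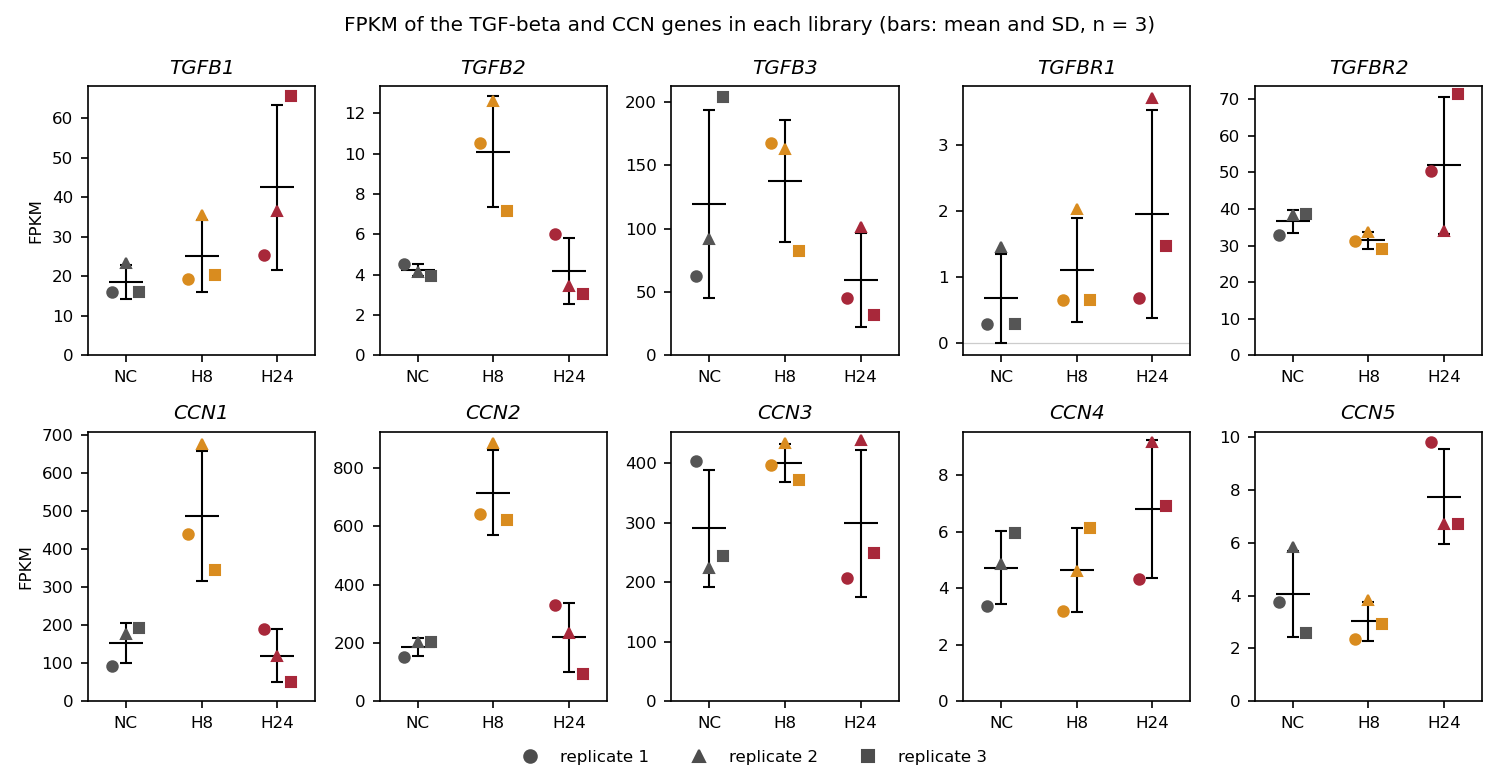
FPKM of the 10 genes (vertical axis, from 0, with its own range for each gene) in NC, H8 and H24, where each point is a library, its shape gives the replicate number, the horizontal bar is the group mean and the error bar is the SD of 3 libraries. CCN1, CCN2 and TGFB2 stand clear of both other groups in H8, CCN5 stands clear of both in H24, and H24 replicate 3 is highest for TGFB1 (65.6) and lowest for CCN2 (94.1).

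TGFB1, the ligand most often studied in vascular disease, lies at chr6:49330418-49348198 on the minus strand (Sscrofa11.1). Its FPKM was 15.96, 23.4 and 16.1 in NC replicates 1 to 3, 19.2, 35.5 and 20.4 in H8, and 25.4, 36.5 and 65.6 in H24. All H24 libraries were above all NC libraries, while H8 overlapped both groups and H24 replicate 3 was far above the rest. The means were 18.5 ± 4.27, 25.0 ± 9.10 and 42.5 ± 20.8 (SD, n = 3), so the spread grew along with the mean.

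TGFB2, a ligand needed for heart and outflow tract development, lies at chr10:8305539-8390341 on the plus strand. Its FPKM was 4.53, 4.14 and 3.95 in NC, 10.5, 12.6 and 7.18 in H8, and 6.03, 3.45 and 3.04 in H24. The lowest H8 library was above every NC and H24 library, and NC and H24 overlapped. The means were 4.21 ± 0.296, 10.1 ± 2.73 and 4.17 ± 1.62 (SD, n = 3).

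TGFB3, the most abundant of the ligands in 8 of the 9 libraries, lies at chr7:99133511-99162221 on the minus strand. Its FPKM was 62.6, 91.9 and 204 in NC, 168, 163 and 82.3 in H8, and 45.3, 101 and 31.8 in H24. NC replicate 3 was the highest of all libraries and H24 replicate 3 the lowest, and each pair of groups overlapped. TGFB3 shares 3669 bp with IFT43 on the opposite strand (mean FPKM 14.3 against 106 for TGFB3), and the strand setting of the counting was not given in the sources used here, so reads from the shared stretch could not be assigned to either gene.

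Within the summed FPKM of the 3 ligands, TGFB3 made up 75.3%, 76.9% and 91.0% in NC, 85.0%, 77.2% and 74.9% in H8, and 59.1%, 71.7% and 31.7% in H24. TGFB1 made up 19.2%, 19.6% and 7.19% in NC, 9.71%, 16.9% and 18.5% in H8, and 33.1%, 25.8% and 65.3% in H24. All H24 libraries thus had a lower TGFB3 share and a higher TGFB1 share than any NC or H8 library, and in H24 replicate 3 TGFB1 exceeded TGFB3, with a TGFB3/TGFB1 ratio of 0.485 against 1.79 to 12.7 elsewhere. The TGFB2 share was between 1.77% and 7.86% in all libraries. These shares do not depend on depth or on scaling between libraries, and no test was made of them. The macrophage and adipocyte marker sums were also highest in H24 replicate 3 and the smooth muscle sum was lowest there, and their part in the ligand shares was not tested.

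**Figure D2:**
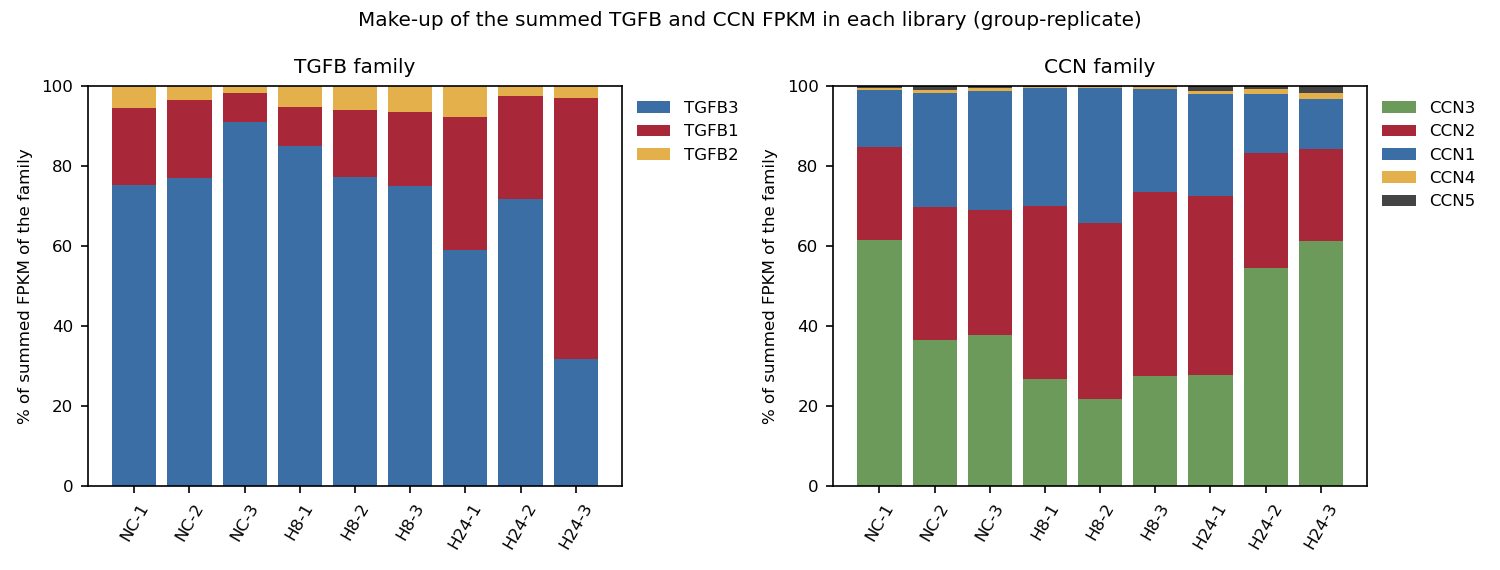
Share (%) of each TGFB ligand in the summed TGFB FPKM (left) and of each CCN gene in the summed CCN FPKM (right), as bars stacked to 100 for each of the 9 libraries, named by group and replicate number. TGFB3 makes up most of the left bars except in H24 replicate 3 (31.7%), and in the right bars CCN2 makes up 43.3% to 46.0% in H8.

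TGFBR1, the type I kinase receptor, lies at chr1:240842698-240918536 on the plus strand and has 5 transcripts in the table. Its FPKM was 0.285, 1.46 and 0.285 in NC, 0.648, 2.03 and 0.649 in H8, and 0.686, 3.71 and 1.47 in H24. Replicate 2 was the highest library of every group, and all groups overlapped. The coefficient of variation within groups was 71.7% to 100%, wider in each group than for any other member.

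TGFBR2, the ligand-binding type II receptor, lies at chr13:16784365-16876656 on the plus strand. Its FPKM was 33.0, 38.3 and 38.7 in NC, 31.3, 33.8 and 29.0 in H8, and 50.4, 34.1 and 71.5 in H24. H24 lay above all H8 libraries in FPKM, by 34.1 against 33.8 in the replicate 2 libraries, but overlapped NC through H24 replicate 2. In TMM-scaled CPM, H24 replicate 2 (186) was below H8 replicate 2 (214). Within NC and H8 the coefficient of variation was 8.74% and 7.71%, compared with 36.1% in H24. TGFBR2 exceeded TGFBR1 in FPKM by between 9.19 and 136 times, with the lowest ratio of each group in replicate 2.

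CCN1, a ligand of αv and α6 integrins, lies at chr4:130389473-130395163 on the minus strand. Its FPKM was 92.5, 176 and 192 in NC, 439, 677 and 346 in H8, and 191, 119 and 50.4 in H24. Every H8 library was above every NC and H24 library, and NC and H24 overlapped, with H24 replicate 3 below all others. The whole of CCN1 (5691 bp) lies within ZNHIT6 on the opposite strand, whose mean FPKM was 3.77 against 254 for CCN1, and reads of the pair could not be told apart without strand.

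CCN2, a mediator of matrix production downstream of TGF-beta, lies at chr1:31673798-31680169 on the plus strand. Its FPKM was 152, 203 and 202 in NC, 642, 884 and 620.0 in H8, and 331, 233 and 94.1 in H24. The H8 libraries again stood clear of the other groups, and H24 reached both above and below the NC range. The means were 186 ± 29.3, 715 ± 147 and 219 ± 119 (SD, n = 3). CCN2 exceeded CCN1 in all 9 libraries, by 1.05 to 1.64 times in NC, 1.31 to 1.79 times in H8 and 1.73 to 1.958 times in H24.

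CCN3, the most abundant CCN gene in NC, lies at chr4:19502173-19514797 on the minus strand. Its FPKM was 403, 224 and 244 in NC, 396, 434 and 371 in H8, and 207, 439 and 249.6 in H24. The H8 libraries were close to each other (coefficient of variation 7.94%), while NC and H24 each had a high library at 403 and 439 among lower ones, which brought it level with H8.

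CCN4, known for its part in bone and smooth muscle growth, lies at chr4:8079755-8111155 on the minus strand. Its FPKM was 3.39, 4.85 and 5.97 in NC, 3.20, 4.61 and 6.14 in H8, and 4.32, 9.17 and 6.93 in H24. The groups overlapped, with the 2 highest libraries in H24.

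CCN5, which lacks the C-terminal cysteine-rich module of the other family members, lies at chr17:47130819-47149608 on the plus strand. Its FPKM was 3.75, 5.82 and 2.59 in NC, 2.37, 3.83 and 2.91 in H8, and 9.82, 6.70 and 6.72 in H24. All H24 libraries were above all NC and H8 libraries, and NC and H8 overlapped. The means were 4.05 ± 1.64, 3.04 ± 0.737 and 7.75 ± 1.80 (SD, n = 3).

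The 5 CCN genes summed to 614 to 655 FPKM in NC, 1346 to 2004 in H8 and 408 to 807 in H24, so the summed level of the family was higher in all H8 libraries than in any other. CCN2 made up 23.2% to 33.1% of this sum in NC, 43.3% to 46.0% in H8 and 23.1% to 44.5% in H24. CCN3 made up 36.5% to 61.6% in NC, 21.7% to 27.6% in H8 and 27.8% to 61.2% in H24. H24 replicate 1 resembled H8 in these shares, with 44.5% CCN2 and 27.8% CCN3. CCN4 and CCN5 each made up at most 1.70% of the sum in all libraries.

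After 8 weeks of high-fat diet, CCN2, CCN1 and TGFB2 were the members with the largest differences from NC, each more than doubled. They were 3 of the 10 members that were up-regulated by the study's thresholds, namely more than 2-fold with p below 0.05 before adjustment, and none was down-regulated. Among all 14336 genes tested in H8/NC, 5.11% were up-regulated and 2.27% down-regulated by the same thresholds. The log2 fold change of CCN2 was 2.10 ± 0.26 (SE), or 4.27-fold, with an unadjusted p of 6.49e-05 and a Benjamini-Hochberg adjusted p of 0.0652 in edgeR's quasi-likelihood test, which placed it 12th by p among the genes tested. For CCN1 the log2 fold change was 1.83 ± 0.39 (adjusted p = 0.187 in edgeR's quasi-likelihood test, unadjusted p of 0.00203), and for TGFB2 it was 1.42 ± 0.26 (adjusted p = 0.143, unadjusted p of 0.000844). These 3 genes were also the members with all H8 libraries above all NC libraries, a pattern found in 6.91% of the genes tested, while no member had all H8 libraries below NC, a pattern found in 15.9%.

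The other 7 members were not called in H8/NC. CCN3 had a log2 fold change of 0.62 ± 0.26 with an unadjusted p of 0.0453 (adjusted p = 0.326 in edgeR's quasi-likelihood test) and TGFB1 one of 0.60 ± 0.33. TGFB3 (0.36 ± 0.48), TGFBR1 (0.87 ± 0.80), CCN4 (0.11 ± 0.31), CCN5 (-0.27 ± 0.36) and TGFBR2 (-0.08 ± 0.17) differed by less than 2 standard errors. With an adjusted p-value under 0.05 and the same fold change, 0 of the 10 members passed in edgeR, where 0.0279% of all genes did. An unadjusted p under 0.05 was found for 4 members and for 14.8% of all genes tested. DESeq2 on the same counts gave 3 members past the adjusted threshold, namely CCN1, CCN2 and TGFB2, and passed 4.49% of all genes to which it gave an adjusted p. With limma on log2(FPKM + 0.1) 1 member passed, CCN2, as did 0.181% of all genes. The summed FPKM of smooth muscle markers had overlapping ranges in NC and H8. Higher levels were called for 5 of 8 macrophage markers, 1 of 8 fibroblast markers, 1 of 3 T cell markers tested and 1 of 3 neutrophil and platelet markers tested, and lower levels for 3 of 7 adipocyte markers tested (median log2 fold change -1.03), and their part in the differences of CCN1, CCN2 and TGFB2 was not tested.

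**Figure D3:**
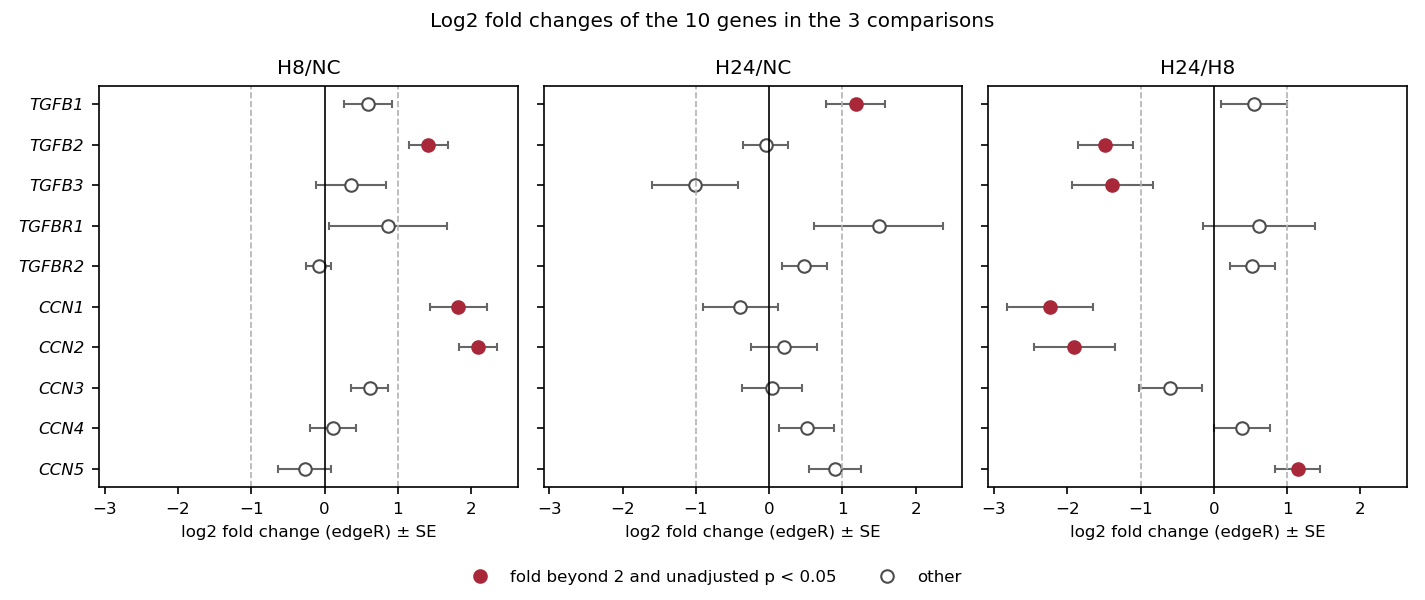
Log2 fold change of the 10 genes (horizontal axis) in H8/NC, H24/NC and H24/H8 from edgeR, with error bars of ± 1 SE and dashed lines at -1 and 1. Filled points exceeded a 2-fold difference with p below 0.05 before adjustment, which were CCN1, CCN2 and TGFB2 in H8/NC, TGFB1 in H24/NC, and CCN1, CCN2, CCN5, TGFB2 and TGFB3 in H24/H8.

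After 24 weeks of high-fat diet, TGFB1 was the member called against NC, and CCN1, CCN2 and TGFB2 overlapped the NC libraries. TGFB1 was thus 1 of 10 members up-regulated and 0 were down-regulated, among 14828 genes tested of which 9.95% were up-regulated and 1.52% down-regulated. The log2 fold change of TGFB1 was 1.18 ± 0.40 (SE), or 2.26-fold, with an unadjusted p of 0.0214 and an adjusted p of 0.274 (edgeR's quasi-likelihood test). Without H24 replicate 3 it was 0.72 ± 0.29 (adjusted p = 0.406 in the same test) and no longer passed the fold threshold, and without NC replicate 1 or NC replicate 3 it was 1.07 in both cases, with unadjusted p-values of 0.0737 and 0.0721. All 8 macrophage markers were called higher in H24/NC, as were 5 of 7 T cell, 4 of 8 fibroblast and 2 of 8 adipocyte markers. So were 2 of 4 neutrophil and platelet markers tested and 1 of 4 B cell and plasma cell markers tested, with 0 called lower. Of the 8 smooth muscle markers 0 were called, at a median of -0.88. H24 replicate 3 was highest for TGFB1 and for the macrophage and adipocyte sums, and lowest for the smooth muscle sum. The T cell and fibroblast sums were highest in other libraries. The part of these cell types in the TGFB1 level was not tested.

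CCN5 had a log2 fold change of 0.90 ± 0.35 in H24/NC (adjusted p = 0.332 in edgeR's quasi-likelihood test, unadjusted p of 0.0374), which left it just inside the fold threshold, and it was 0.99 without H24 replicate 3. TGFB1 and CCN5 were the 2 members with all H24 libraries above NC, as in 12.8% of the genes tested, and 0 members had them all below, as in 7.80%. TGFB3 had a log2 fold change of -1.01 ± 0.59 and TGFBR1 one of 1.496 ± 0.88 (adjusted p-values of 0.502 and 0.508 in edgeR's quasi-likelihood test), neither of which was called. TGFBR2 (0.48 ± 0.30), CCN4 (0.51 ± 0.37), CCN1 (-0.39 ± 0.51), CCN2 (0.20 ± 0.45), CCN3 (0.03 ± 0.41) and TGFB2 (-0.04 ± 0.31) were also not called. By adjusted p-value, 0 members passed in edgeR, DESeq2 and limma on log2(FPKM + 0.1), and of all genes 0%, 6.44% and 0.0674% passed. An unadjusted p under 0.05 was found for 2 members and for 13.9% of all genes tested. H8/NC and H24/NC use the same NC libraries, so they are not independent of each other.

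Between 8 and 24 weeks on the diet, CCN1, CCN2 and TGFB2 were lower in H24 and CCN5 was higher, with no overlap between the groups, and TGFB3 was lower with an overlap. By the thresholds above, 4 members were down-regulated and 1 was up-regulated in H24/H8, among 14788 genes tested of which 3.05% were down-regulated and 7.22% up-regulated. CCN1 had a log2 fold change of -2.23 ± 0.59 (4.69-fold lower), and CCN2 of -1.90 ± 0.55 (3.74-fold lower), both with an adjusted p of 0.336 in edgeR's quasi-likelihood test. TGFB2 had a log2 fold change of -1.48 ± 0.38 and TGFB3 of -1.38 ± 0.55, and CCN5 had one of 1.15 ± 0.30, with adjusted p-values of 0.336, 0.347 and 0.336 in the same test. The unadjusted p-values of CCN1, CCN2, TGFB2, TGFB3 and CCN5 were 0.00647, 0.0101, 0.00539, 0.0399 and 0.00686. Without H24 replicate 3, CCN1 (-1.86), CCN2 (-1.54), TGFB2 (-1.29) and CCN5 (1.24) were still called, and TGFB3 (-1.07 ± 0.50, adjusted p = 0.490 in edgeR's quasi-likelihood test) was not.

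The TGFB3 call was also lost without H8 replicate 1, H8 replicate 2 or H24 replicate 1, where the log2 fold change was -1.26, -1.18 and -1.20. The CCN5 difference came just under the fold threshold without H8 replicate 1 (0.97) or H24 replicate 1 (0.96). CCN5 and TGFBR2 (0.53 ± 0.31, not called) were the 2 members with all H24 libraries above H8 in FPKM, as in 15.5% of the genes tested, and CCN1, CCN2 and TGFB2 were the 3 with all of them below, as in 6.31%. For TGFBR2 this rested on 34.1 against 33.8 FPKM and did not hold in TMM-scaled CPM. TGFB1 (0.55 ± 0.45), TGFBR1 (0.62 ± 0.76), CCN3 (-0.60 ± 0.43) and CCN4 (0.38 ± 0.39) were not called. By adjusted p-value, 0 members passed in edgeR, where 0.0135% of all genes did, while 5 members and 13.7% of all genes had an unadjusted p under 0.05. DESeq2 gave 4 members (CCN1, CCN2, CCN5 and TGFB2) and passed 4.74% of all genes, and limma on log2(FPKM + 0.1) gave 0 members and 0.00676% of all genes. The smooth muscle markers had a median log2 fold change of -0.81 in H24/H8 with 0 of 8 called. Higher levels were called for 8 of 8 macrophage markers (median log2 fold change 2.75), 7 of 7 T cell markers (3.16), 5 of 8 adipocyte markers (2.79) and 1 of 8 fibroblast markers. The part of these markers in the CCN1, CCN2, TGFB2, TGFB3 and CCN5 differences was not tested.

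The other genes of the pathway were read from 9 lists and compared with the shares of all genes called that are given above for each comparison. When H24 replicate 3 was left out, 946 of 14578 genes tested were higher and 186 lower in H24/NC. In H24/H8 the same omission gave 547 higher and 365 lower among 14589 genes tested. Of 16 other superfamily ligands, 12 were tested, and in H8/NC INHBA, the activin A subunit, and GDF15, a stress-induced cytokine, were higher (log2 fold changes of 2.56 ± 0.78 and 1.44 ± 0.58) and 0 were lower. INHBA FPKM was 78.9 in H8 replicate 2 but 16.8 and 9.42 in H8 replicates 1 and 3 and 6.31 to 7.78 in NC. In H24/NC GDF6 (1.21 ± 0.51) was higher and BMP2 (-1.22 ± 0.50, and -0.97 and not called without H24 replicate 3) lower, and in H24/H8 2 were higher and 3 lower. Without H24 replicate 3 the counts were 2 higher and 0 lower in H24/NC and 3 higher and 3 lower in H24/H8. Latency and activation genes hold the ligands in the matrix or release them. Of 18 tested, 1 was higher in H8/NC, 4 in H24/NC and 3 in H24/H8, and 0 were lower in any comparison. The integrin subunits ITGB3 (2.73 ± 0.74) and ITGB8 (1.13 ± 0.39) and the protease PLAU (1.86 ± 0.59) had the smallest p-values in H24/NC. Without H24 replicate 3 the counts in H24/NC and H24/H8 were 2 and 1, the log2 fold changes of ITGB3, ITGB8 and PLAU in H24/NC were 1.33, 0.93 and 0.97, and ITGB3 FPKM was 6.24 and 6.41 in H24 replicates 1 and 2 but 37.1 in replicate 3.

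Of 12 other receptors and coreceptors, 0 were called in H8/NC, 2 were higher in H24/NC and 3 were higher in H24/H8 (2 without H24 replicate 3, where 1 was lower), with 0 lower. ACVRL1 (1.80 ± 0.45) and ENG (1.43 ± 0.44), an endothelial type I receptor and its coreceptor, were the genes called in H24/NC, whereas TGFBR1 and TGFBR2 were not. Among the 17 SMADs and their regulators, 0 were called in either direction in H8/NC and in H24/NC, and in H24/H8 SMAD6 (1.05 ± 0.42) was higher and BAMBI (-1.11 ± 0.28), a decoy receptor, was lower (-0.94 and not called without H24 replicate 3). Of the secreted antagonists and binders, 1 was higher and 1 lower in H8/NC among 15 tested (CHRDL1 and SOST), and among 16 tested 2 were higher in H24/NC (among them CHRD), while 2 were higher and 1 lower in H24/H8 (2 and 0 without H24 replicate 3). CHRDL1 FPKM was 108 in H8 replicate 2 but 38.1 and 38.7 in H8 replicates 1 and 3 and 18.6 to 32.4 in NC.

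Of 28 TGF-beta target genes tested, 5 were higher and 0 lower in H8/NC, and 25 had a log2 fold change above 0, with a median of 0.37 against 0.01 for all genes tested. With library size in place of TMM, 23 were above 0 and the median was 0.22. Among the genes called were TGFBI (1.002 ± 0.19), the fibrillar collagen genes COL1A1 (1.02 ± 0.23) and COL1A2 (1.15 ± 0.28), and PLAUR (1.73 ± 0.47). In H24/NC 6 were higher and 0 lower, led by VCAN (2.49 ± 0.34), POSTN (2.11 ± 0.32) and CDKN2B (2.25 ± 0.44), but 14 were above and 14 below 0, with a median of 0.05. In H24/H8 the median was -0.48, with 3 higher and 1 lower. Without H24 replicate 3 that median was -0.21, with 5 higher and 1 lower, and with library size in place of TMM it was -0.27.

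CCN1 and CCN2 are also targets of YAP/TAZ with TEAD, and of 26 other genes of that pathway, 3 were higher and 0 lower in H8/NC. They were F3 (1.31 ± 0.36), VGLL3 (1.59 ± 0.55), with FPKM of 13.8 in H8 replicate 2 against 4.41 and 3.55 in H8 replicates 1 and 3, and ANKRD1, whose FPKM of 36.4 in H8 replicate 2 stood against 0.264 and 0.227 in H8 replicates 1 and 3 and 0.145 to 0.623 in NC. In H24/NC STK4 (1.67 ± 0.54) and FJX1 (2.28 ± 0.77) were higher and AMOTL1 (-1.30 ± 0.32) was lower, and in H24/H8 4 were lower and 0 higher. Without H24 replicate 3 the higher count in H24/NC was 0 and the lower count in H24/H8 was 1. Called or not, 4 of the 26 were above 0 and 22 below in H24/NC, with a median of -0.26 (-0.08 without H24 replicate 3). In H24/H8 5 were above 0 and 21 below, with a median of -0.45 (-0.22 without H24 replicate 3). In H8/NC 17 were above 0 and 9 below, with a median of 0.15, but 13 and 13 with library size in place of TMM. Of 10 serum response factor pathway genes, JUN (1.48 ± 0.34) and MYOCD (1.59 ± 0.47), a smooth muscle coactivator, were higher in H8/NC and lower in H24/H8 (-1.71 ± 0.37 and -1.79 ± 0.67), and 0 were called in H24/NC. MYOCD FPKM was 67.0, 115 and 34.9 in H8 replicates 1 to 3 and 19.6 to 35.4 in NC, so these groups overlapped. Of the immediate early genes in this list, JUN was thus called in H8/NC, while FOS (0.83 ± 0.81) and EGR1 (0.28 ± 0.72) were not. FOS FPKM spread from 123 to 706 in NC and from 161 to 1153 in H8. Of 13 other matricellular genes tested, SPP1 (2.25 ± 0.51), which encodes osteopontin, was the gene called in H8/NC. In H24/NC SPP1 (5.43 ± 1.04, and 3.78 without H24 replicate 3), SMOC1 (1.79 ± 0.47) and FBLN2 (1.05 ± 0.32) were higher, and in H24/H8 2 were higher (1 without H24 replicate 3), with 0 lower in any comparison. The genes named for H8/NC and H24/H8 were chosen after their values were seen.

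**Figure D4:**
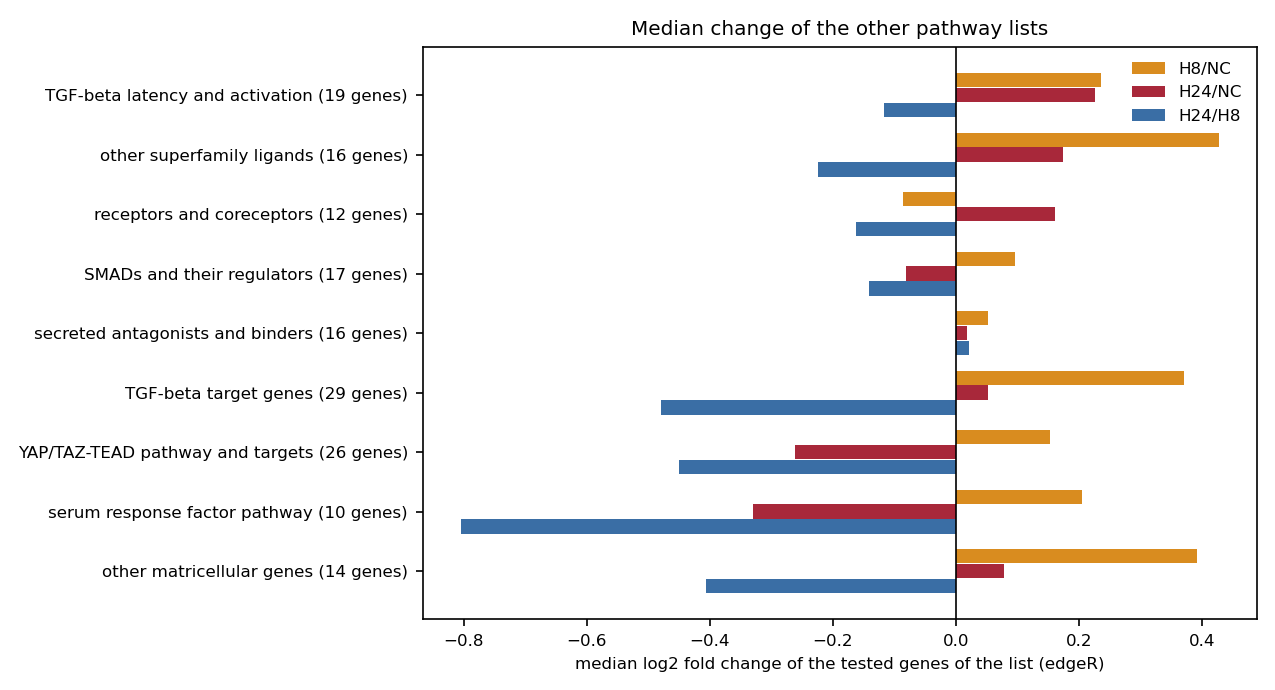
Median log2 fold change (horizontal axis, edgeR) of the tested genes of 9 lists of other pathway genes in H8/NC, H24/NC and H24/H8, as bars from 0, with the number of listed genes that the table holds in brackets. The medians of the TGF-beta target genes are 0.37 in H8/NC, 0.05 in H24/NC and -0.48 in H24/H8, and with library size in place of TMM the bars of the SMADs and the antagonists in H8/NC and of latency genes, receptors and SMADs in H24/H8 change sign.

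Among 9697 named genes whose mean FPKM reached 1, those whose log2 CPM followed each member most closely over the 9 libraries were found by Pearson's r, as a description. The 9 libraries fall into 3 groups, so each r holds group differences as well as differences within groups. Genes picked by r share the high groups and libraries of their member through the selection, so that likeness supports nothing further. TGFB2 was followed by GEM (r = 0.985), a small GTPase, and OTUD1 (0.962), and GEM had a mean FPKM of 84.1, 371 and 67.9 in NC, H8 and H24. CCN1 was followed by GDNF (0.964) and WWTR1 (0.962), and CCN2 by UQCC2 (0.962) and the amino acid transporter SLC38A2 (0.956). All 6 of these genes had their highest group mean in H8, as CCN1, CCN2 and TGFB2 had, which follows from how they were picked.

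CCN5 was followed by GPX3 (0.939), an extracellular glutathione peroxidase with a mean FPKM of 59.6, 25.2 and 243 in NC, H8 and H24, and by DDAH1 (0.932). TGFB1 was followed by CFD (0.972), complement factor D, and TCN2 (0.968), and CFD was highest in H24 replicate 3 (186 FPKM) as TGFB1 was. For TGFBR2 the closest genes were MGST1 (0.978) and CASP8 (0.969), both highest in H24 replicate 3, and for TGFBR1 they were PLVAP (0.973), an endothelial gene, and LRRC8A (0.926). TGFB3 was followed by SUPT6H (0.944) and BRPF3 (0.940), CCN3 by CDR2L (0.945) and AGAP1 (0.944), and CCN4 by MCAT (0.905) and C19orf53 (0.883), the lowest of these values.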

How the data were processed

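The 9 RNA-seq libraries of abdominal aorta were grouped by their labels, 3 in each of NC, H8 and H24. Poly(A) mRNA was sequenced as paired ends, and per the methods reads were mapped with HISAT 2.0 to the pig genome Sscrofa11.1 and assembled with StringTie 1.3.0, from which the authors took FPKM values. The submitters' processing notes also list Bowtie 0.12.2 and the mouse build mm8, with no role given. Beside FPKM, the deposited file gives estimated counts by gene and library. All were whole numbers, and how they were made, the annotation release and the strand setting are not given in the sources used here. Coordinates are as deposited.

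Counts were tested in R 4.3.3 (data.table version 1.17.8, edgeR 4.0.16) with TMM scaling and the earlier form of the quasi-likelihood test, two-sided, fitted for each comparison on its 6 libraries and all genes whose mean FPKM there reached 0.1. Benjamini-Hochberg adjustment ran over all genes tested. A gene was called by the thresholds of the study's methods, more than 2-fold with p below 0.05 before adjustment, and also at the same fold with an adjusted p below 0.05. SE came from the fold change and the F statistic. All 10 members passed the filter in all 3 comparisons. Of the listed pathway genes, called or leading ones are named (at most 3 by p in H24/NC). For each member, the 2 genes closest by Pearson's r of log2(TMM CPM + 0.5) are named. The members and the lists were chosen with earlier results of these data known.

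The replicate numbers were not taken as pairs. Same-numbered libraries of different groups correlated by -0.06 to 0.10 in their deviations from the group means, and 2 of 9 pairs were over 0.1. The replicate 2 libraries correlated by 0.100 (NC and H8), 0.077 (NC and H24) and 0.100 (H8 and H24), each best with its own number. A factor shared by the replicate 2 libraries was not tested. No libraries were duplicates (lowest chi-square per degree of freedom 164). Alternatives were testing unfiltered genes, requiring a mean FPKM of 1, median-ratio scaling, library size alone, DESeq2 1.42.0, a fit of all 9 libraries, a replicate block, limma 3.58.1 on log2(FPKM + 0.1) and log2(FPKM + 1), shares of counts, and each library left out. The present default form of edgeR's quasi-likelihood test was added after seeing the data. The fit was checked on simulated data before use. With 3 libraries against 3, exact permutation of 1 gene's values cannot reach p below 0.1, so none was used. Counts of this depth leave little counting error for the members. The p-values set each difference against the spread between these libraries, with a gene's variance drawn in part from all genes tested. Sequences of the members were not used here, and some genes of the lists are counted but not reported by name.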

Additional observations from a re-analysis of the deposited data

Results flagged for a closer look

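CCN1, CCN2, TGFB2, TGFB3 and CCN5 differed between the 8-week and 24-week groups in their direct comparison, H24/H8, where time on the diet and age cannot be told apart. They passed the study's thresholds in it, with log2 fold changes of -2.23, -1.90, -1.48, -1.38 and 1.15. None of these passed an adjusted p-value in edgeR's quasi-likelihood test (adjusted p of 0.336 to 0.347). CCN1, CCN2 and TGFB2 were called in 16 of 16 alternatives, CCN5 in 14 and TGFB3 in 12.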

How the results depend on the processing

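CCN1, CCN2 and TGFB2 were called in H8/NC and in H24/H8 in all 16 alternatives, with log2 fold changes of 1.42 to 2.05, 1.83 to 2.22 and 1.06 to 1.64 in H8/NC, and -2.69 to -1.83, -2.29 to -1.54 and -1.81 to -1.11 in H24/H8. Their adjusted p-values ranged more widely, from 2.25e-11 to 0.371 for CCN2 in H8/NC. TGFB1 in H24/NC was called in 13 of 16 (0.72 to 1.46). The number of members past an adjusted p of 0.05, which was 0 in edgeR, was 3 in H8/NC and 4 in H24/H8 with DESeq2, and 1 in H8/NC with limma on log2(FPKM + 0.1). With each library left out it was 0 to 1 in H8/NC. The number of members called was 0 to 3 in H24/NC and 3 to 6 in H24/H8 with each library left out. With the replicate block 2 members were called in H24/NC, TGFB1 and TGFBR1 (1.62), and TGFBR1 was also called in H8/NC (1.07), while up- and down-regulated genes numbered 1114 and 250 in H24/NC, 639 and 311 in H8/NC, and 800 and 475 in H24/H8. The numbers were not taken as pairs, and a library correlated best with its own number in 7 of 18 cases. These included every case of replicate 2, and a factor shared by those libraries was not tested.

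Signs turned for members that were not called. In H24/NC, CCN3 was -0.0069 with the replicate block and -0.38 to 0.32 with each library left out, CCN2 was -0.18 to 0.57 and TGFB2 -0.37 to 0.14. In H8/NC, CCN4 was -0.037 both with library size alone and with limma on log2(FPKM + 0.1), -0.030 on log2(FPKM + 1), and -0.092 to 0.32 with each library left out, where CCN5 was -0.56 to 0.12, TGFBR1 -0.017 to 2.15 and TGFBR2 -0.21 to 0.0090. In H24/H8 TGFBR1 was -0.31 to 1.498. The cause was not tested. Taken from counts in place of FPKM, TGFB2 made up 4.13% of its family in H8, CCN3 28.8% in H8, and CCN4 0.385%, 0.160% and 0.577% in NC, H8 and H24.

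Library size alone shifted the median log2 fold change of all genes by -0.15 in H8/NC and 0.20 in H24/H8. It split the up- and down-regulated genes as 576 and 459 in H8/NC (733 and 326 with TMM) and 1447 and 290 in H24/H8 (1068 and 451 with TMM), and limma on log2(FPKM + 0.1) gave 454 and 505 in H8/NC. Over all alternatives, 714 to 1795 genes were up-regulated and 137 to 456 down-regulated in H24/NC, 202 to 830 and 141 to 505 in H8/NC, and 517 to 1447 and 177 to 684 in H24/H8. Genes past the adjusted threshold numbered 0 to 945, 0 to 617 and 0 to 666. With 3 libraries a group, the spread between libraries and not depth limits these comparisons, most of all for TGFBR1, TGFB3 and all values that rest on H24 replicate 3. What made up that spread was not tested.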
